A study of Mus musculus with 13 samples.

Results

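Ribosomal protein genes were followed through 13 mouse basal cell carcinomas (BCC), a skin cancer driven by Hedgehog signaling, by RNA sequencing of bulk tumor tissue. The genes were taken by name: symbols starting with Rpl or Rps and a number, the stalk proteins Rplp0, Rplp1 and Rplp2, and Rpsa, without the S6 kinases. The deposited table held 21100 genes, of which 16687 had a value in every tumor. A total of 91 genes matched by name and 90 of them had a value in every tumor, the exception being Rpl10l. These 90 genes consisted of 31 proteins of the small subunit, 46 of the large subunit, 12 copies or like forms of such genes, and Rps19bp1, which binds Rps19 and is no part of the ribosome.

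The study compared a genetically engineered model (GEM-BCC) with a transplantable model (Tp-BCC) that was derived from it. The GEM-BCC group held 9 intradermal tumors from 7 mice of the genotype Ptch1+/- K14-CreER2 p53fl/fl (the driver is written K14-CreERT2 in the paper on the models). These mice received 3 intraperitoneal injections of 300 µg tamoxifen and 1 X-ray dose of 4 Gy. The K14 promoter restricts Cre to keratin 14 expressing basal cells of the epidermis and its appendages. The Tp-BCC group held 4 subcutaneous tumors from 4 mice, each grown from 2000000 tumor cells placed in the right flank of Ptch1+/-p53fl/fl hosts, and all 4 descended from a single GEM-BCC tumor. All animals were female. Hosts and donors shared the Ptch1 and p53 alleles, and the labels name no tamoxifen or X-rays for the Tp-BCC hosts. The models were processed as batch 1 (GEM-BCC) and batch 2 (Tp-BCC), so that model and batch cannot be told apart in any comparison. GEM2 and GEM3 were tumors of the same mouse (mouse 2), and GEM7 and GEM8 of another (mouse 6). P-values measured the spread between these tumors.

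A ribosome is built from a small subunit, which reads the messenger RNA, and a large subunit, which joins amino acids. Each subunit holds ribosomal RNA and a set of proteins that are made in near equal numbers, so their genes are usually transcribed at high levels and together. Mammalian genomes also carry many processed copies of these genes, which arose from messenger RNA that was copied back into DNA. Reads from such a copy and from its parent gene are hard to separate, and a few copies are genes with expression of their own.

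Sequencing depth, as the sum of expected counts, was 28075317 to 32629102 in GEM-BCC against 15388027 to 17494912 in Tp-BCC. Of the genes in the table, 1932 had values in GEM-BCC tumors alone and 65 in Tp-BCC tumors alone. Levels are given as log2 CPM, where CPM is the expected count relative to the library size after trimmed mean (TMM) scaling, and differences as log2 of Tp-BCC over GEM-BCC with their standard error (SE). Ptch1, of which 1 allele is inactivated in both models, had log2 CPM values of 7.30 to 8.85 in GEM-BCC and 7.46, 7.38, 7.55 and 5.93 in TP1 to TP4 (difference -0.87 ± 0.34, adjusted p = 0.0809). Trp53, the floxed gene, was lower in Tp-BCC by a difference of -0.84 ± 0.23 (adjusted p = 0.0211). Krt14, which marks the basal lineage, differed by -0.61 ± 0.33 (adjusted p = 0.204), and Krt5 by -0.18 (adjusted p = 0.687), while the follicle keratin Krt15 was lower by -4.03. All these markers were detected in both models. Of the adipocyte markers, 3 of 3 tested were higher in Tp-BCC, with a summed level of 0.442 to 3.16 CPM in GEM-BCC and 11.6 to 78.6 CPM in Tp-BCC. Endothelial markers were higher for 4 of 8 genes, with summed levels of 107 to 299.9 and 329.5 to 389 CPM. Their part in the differences of ribosomal protein genes was not tested. In bulk tissue, fewer cells of a type and less RNA per cell cannot be told apart.

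The copies were examined first, because they set how the counts of their parent genes can be read. The sequences are shown for the pairs whose counts moved between gene and copy, from the transcripts of the GENCODE vM21 annotation (GRCm38), with coding bases numbered from the start codon. Rps27 (chromosome 3, minus strand), a zinc-binding protein of the small subunit, and the retrogene Rps27rt (chromosome 9, minus strand) were identical over all 255 coding bases, of which bases 1 to 60 are shown. Rps27l, a related gene on chromosome 9 (plus strand), differed from Rps27rt at 61 of 255 bases, and capitals mark the bases that differ within bases 10 to 69.
Rps27, bases 1 to 60: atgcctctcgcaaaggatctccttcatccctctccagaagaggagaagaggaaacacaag
Rps27rt, bases 1 to 60: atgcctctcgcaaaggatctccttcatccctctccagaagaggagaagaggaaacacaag
Rps27rt, bases 10 to 69: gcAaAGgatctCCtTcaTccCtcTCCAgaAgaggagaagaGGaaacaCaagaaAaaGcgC
Rps27l, bases 10 to 69: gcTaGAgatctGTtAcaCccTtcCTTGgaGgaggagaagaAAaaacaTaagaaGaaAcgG

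Rpl30 (chromosome 15, minus strand), a protein of the large subunit, differed from the predicted gene Gm7429 (chromosome X, minus strand) at 4 of 348 coding bases. Rpl34 (chromosome 3, minus strand) differed from Rpl34-ps1 (chromosome 6, plus strand) at 2 of 354, and Rpl37 (chromosome 15, plus strand) from Rpl37rt (chromosome 5, minus strand) at 1 of 294. Capitals mark the differing bases within each stretch.
Rpl30, bases 48 to 107: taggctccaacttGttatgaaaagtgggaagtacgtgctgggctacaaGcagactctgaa
Gm7429, bases 48 to 107: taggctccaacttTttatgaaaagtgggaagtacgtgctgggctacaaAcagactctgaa
Rpl34, bases 102 to 161: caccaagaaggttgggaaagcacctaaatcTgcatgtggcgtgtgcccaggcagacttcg
Rpl34-ps1, bases 102 to 161: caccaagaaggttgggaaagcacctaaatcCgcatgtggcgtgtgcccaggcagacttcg
Rpl37, bases 219 to 278: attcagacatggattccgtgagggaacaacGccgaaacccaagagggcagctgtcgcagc
Rpl37rt, bases 219 to 278: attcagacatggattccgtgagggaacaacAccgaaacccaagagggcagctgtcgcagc

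Rps27 and Rps27rt exchanged places between the models. Rps27 had expected counts of 0 to 229 over the 9 GEM-BCC tumors, and 5382, 6824, 5263 and 10386 in TP1 to TP4. Rps27rt had counts of 15238 to 52740 in GEM-BCC, and 24, 13, 21 and 24 in TP1 to TP4. No GEM-BCC tumor reached the Tp-BCC range of either gene. On the log2 CPM scale Rps27 was at -3.73 (lowest), 0.86 (median) and 2.79 (highest) in GEM-BCC and at 8.31, 8.78, 8.30 and 9.53 in Tp-BCC, a difference of 7.56 ± 0.70 (edgeR quasi-likelihood test, Benjamini-Hochberg adjusted p = 3.91e-06). Rps27rt was at 8.97, 9.45 and 10.70 in GEM-BCC and at 0.57, -0.13, 0.41 and 0.84 in Tp-BCC, a difference of -9.23 ± 0.50 (adjusted p = 2.84e-08). Rps27rt thus held 99.1 to 100% of the counts of the pair in GEM-BCC against 0.189 to 0.435% in Tp-BCC. In every tumor the expected counts of both genes, which need not be whole, added up to a whole number within 0.015.

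The sum of the pair showed a much smaller difference than either gene. Summed, Rps27 and Rps27rt were at log2 CPM values of 8.98 (lowest), 9.45 (median) and 10.70 (highest) in GEM-BCC and at 8.31, 8.78, 8.31 and 9.54 in TP1 to TP4. The groups overlapped through TP4, and the difference of -0.80 ± 0.33 did not pass the test (adjusted p = 0.105). Without TP4 the difference was -1.19 (adjusted p = 0.0380), and with libraries scaled to the summed ribosomal protein counts it was -0.83 (adjusted p = 0.00908). Unlogged and relative to all counts of each tumor, without TMM scaling, the pair took 489 to 1617 CPM in GEM-BCC (median 742) and 343, 391, 343 and 620.3 CPM in Tp-BCC. Adding Rps27l gave a difference of -0.78 ± 0.34 (adjusted p = 0.116), and Rps27l alone, which is a target of p53, differed by -0.57 ± 0.37 (adjusted p = 0.288).

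**Figure D1:**
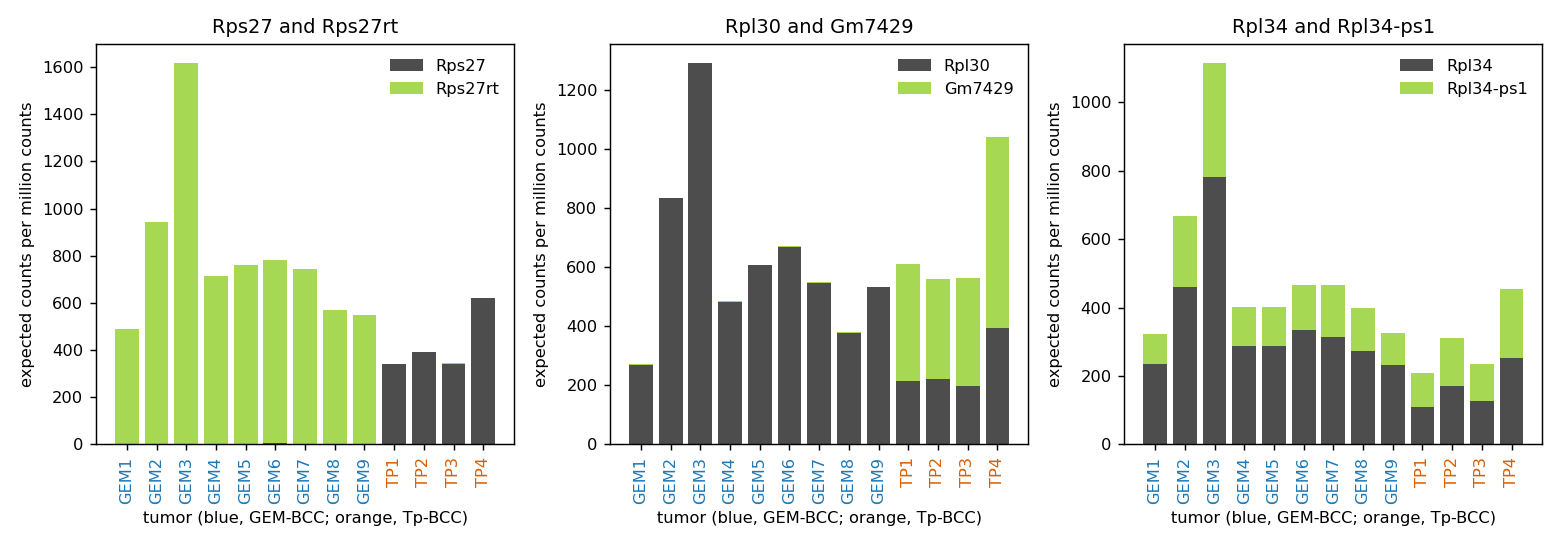
Stacked bars give expected counts as CPM of all counts (vertical axis) in each of the 9 GEM-BCC and 4 Tp-BCC tumors (horizontal axis) for Rps27 with Rps27rt, Rpl30 with Gm7429, and Rpl34 with Rpl34-ps1, and the colors of a bar separate the gene from its copy. The bar of the first pair is nearly all Rps27rt in GEM-BCC and nearly all Rps27 in Tp-BCC, Gm7429 takes 60.7 to 65.1% of its pair in Tp-BCC, and the summed height of the first pair lies between 343 and 620.3 in Tp-BCC and between 489 and 1617 in GEM-BCC.

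Rpl30 showed the same kind of exchange in part. Its log2 CPM was 8.12 (lowest), 9.04 (median) and 10.38 (highest) in GEM-BCC and 7.63, 7.95, 7.50 and 8.89 in TP1 to TP4, which overlapped, and it fell with a difference of -1.17 ± 0.39 (adjusted p = 0.0458, above 0.05 in 14 of 28 alternative analyses). Its copy Gm7429 had expected counts of 25 to 153 in GEM-BCC and 6243, 5943, 5648 and 10852 in Tp-BCC. The copy held 0.113 to 1.22% of the pair in GEM-BCC and 65.0, 60.7, 65.1 and 62.1% in TP1 to TP4. Summed, the pair was at 8.13 (lowest), 9.04 (median) and 10.38 (highest) in GEM-BCC and at 9.14, 9.30, 9.02 and 10.29 in Tp-BCC. The difference of the sum was of the opposite sign to that of Rpl30 alone, at 0.26 ± 0.35 (-0.17 without TP4), and did not pass the test (adjusted p = 0.633).

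For Rpl34 the copy had a larger part in both models. Rpl34-ps1 held 27.3 to 32.9% of the pair in GEM-BCC (median 28.7%) and 47.6, 45.2, 46.4 and 44.3% in TP1 to TP4, and these ranges did not overlap. Rpl34 was at 7.85 (lowest), 8.14 (median) and 9.65 (highest) log2 CPM in GEM-BCC and at 6.66, 7.59, 6.87 and 8.25 in Tp-BCC, a difference of -0.99 ± 0.38 (adjusted p = 0.0780). Rpl34-ps1 differed by -0.02 ± 0.36 (adjusted p = 0.979), and the sum by -0.63 ± 0.37 (adjusted p = 0.245). For Rpl37 the copy was a small part, with Rpl37rt at 0.419 to 0.739% of the pair in GEM-BCC and at 1.27, 1.01, 0.923 and 1.44% in Tp-BCC. Rpl37rt rose from log2 CPM values of 0.97 to 2.32 in GEM-BCC to 2.44, 2.54, 2.07 and 4.00 in Tp-BCC (difference 1.41 ± 0.36, adjusted p = 0.0146), but by 0.74 and short of the threshold without TP4 (adjusted p = 0.162), while its parent differed by 0.14 ± 0.31 (adjusted p = 0.775). The groups overlapped for Rpl37rt, as TP3 lay below the highest GEM-BCC tumor.

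Other pairs held their shares more evenly. An annotated transcript of Wdr89 holds a stretch that differed from the coding sequence of Rplp2 at 2 of 348 bases. Wdr89 took 0.717 to 2.10% of the pair with Rplp2 in GEM-BCC against 0.511 to 2.48% in Tp-BCC. Their sum differed by -0.32 (adjusted p = 0.548). Rpl41 added up to whole numbers with Herpud2, a gene with no shared run of 100 bases in these transcripts, and that sum differed by 0.36 (adjusted p = 0.439). Gm5148 and Rps23rg1, both related to Rps23, had a sum that differed by -0.32 (adjusted p = 0.733). Of the 7 pairs found by whole-number sums, edgeR called 0, with 0 at an adjusted p under 0.05 and 1 at an unadjusted p under 0.05, and DESeq2 gave 0, 0 and 1. Of the 10 families grouped by symbol, edgeR called 0, with 0 at an adjusted p under 0.05 and 3 at an unadjusted p under 0.05, and DESeq2 called 0, with 2 at an adjusted p under 0.05. Rpl39 with Rpl39l came nearest, at -1.33 ± 0.47 (adjusted p = 0.0556), then Rpl3 with Rpl3l at -0.76 (adjusted p = 0.0603). Rpl22 with Rpl22l1, Rpl7 with Rpl7l1 and Rpl36a with Rpl36al had sums that differed by -0.29, 0.22 and 0.00.

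Expected counts that are not whole mark genes whose reads were divided with another transcript. Of the 90 genes, 59 (65.6%) had whole counts in every tumor, against 15735 (94.3%) of the genes with values in all tumors. A further 12 (13.3%, against 3.64%) had fractional counts in both models, and 18 (20%, against 1.49%) in Tp-BCC alone, while 1 gene, Rpl31-ps12 (1.11%, against 0.575%), had them in GEM-BCC alone. The 18 genes included Rpl13, Rpl3, Rpl7a, Rpl35a, Rps2 and Rps12. For these genes the division of reads differed between the models before any comparison of levels, and no partner in the table was found for Rps13 and Rpl31, which were fractional in both. Whether the transcript sets used for the 2 batches differed was not tested.

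Together the 90 genes took 5.75 to 14.0% of all counts in GEM-BCC against 6.49 to 10.3% in Tp-BCC. The GEM-BCC tumors were at 5.75, 10.2, 14.0, 6.64, 7.45, 8.20, 7.04, 6.68 and 6.64% in order from GEM1 to GEM9, and TP1 to TP4 at 6.52, 7.32, 6.49 and 10.3%. Both tumors of mouse 2, GEM2 and GEM3, were above the other GEM-BCC tumors, TP4 was above the other Tp-BCC tumors, and the models overlapped. The small subunit took 2.23 to 5.71% in GEM-BCC against 2.51 to 4.08% in Tp-BCC, and the large subunit 3.43 to 7.99% and 3.92 to 6.19%. The ratio of large to small subunit counts was 1.19 to 1.53 in GEM-BCC and 1.53, 1.48, 1.57 and 1.52 in TP1 to TP4. It was lowest in GEM4, where the small subunit gene Rps12 alone had 159842 counts, against 4628 to 32301 in the other tumors. The ratio without Rps12 was not computed.

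The genes varied together from tumor to tumor. GEM3 was the highest GEM-BCC tumor for 68 of the 77 genes of both subunits (88.3%), against 20.6% of all genes tested, and TP4 was the highest Tp-BCC tumor for 74 of 77 (96.1%), against 36.9%. GEM1 was the lowest GEM-BCC tumor for 38 (49.4%). Relative to each gene's mean, the median of the 77 genes was -0.42 in GEM1, 0.47 in GEM2, 0.96 in GEM3, -0.44 in TP1, 0.02 in TP2, -0.39 in TP3 and 0.66 in TP4 on the log2 scale. Over the 13 tumors, which share depth and library scaling among all genes, the Pearson correlation of a gene with the median of the other genes had a median of 0.843 over the 77 genes and was above 0.8 for 46 of them. It was under 0.5 for Rpl7a, Rps12 and Rps27. For the 9 copies tested its median was 0.460. Other transcripts moved with the same tumors: the hemoglobin gene Hba-a1 was at 8.03 and 7.95 log2 CPM in GEM2 and GEM3 and at 4.68 to 6.83 in the other GEM-BCC tumors, and the summed level of the skeletal muscle markers reached 107 CPM in Tp-BCC, where all 4 muscle markers tested were highest in TP4. The part of blood and muscle RNA in these levels was not tested.

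**Figure D2:**
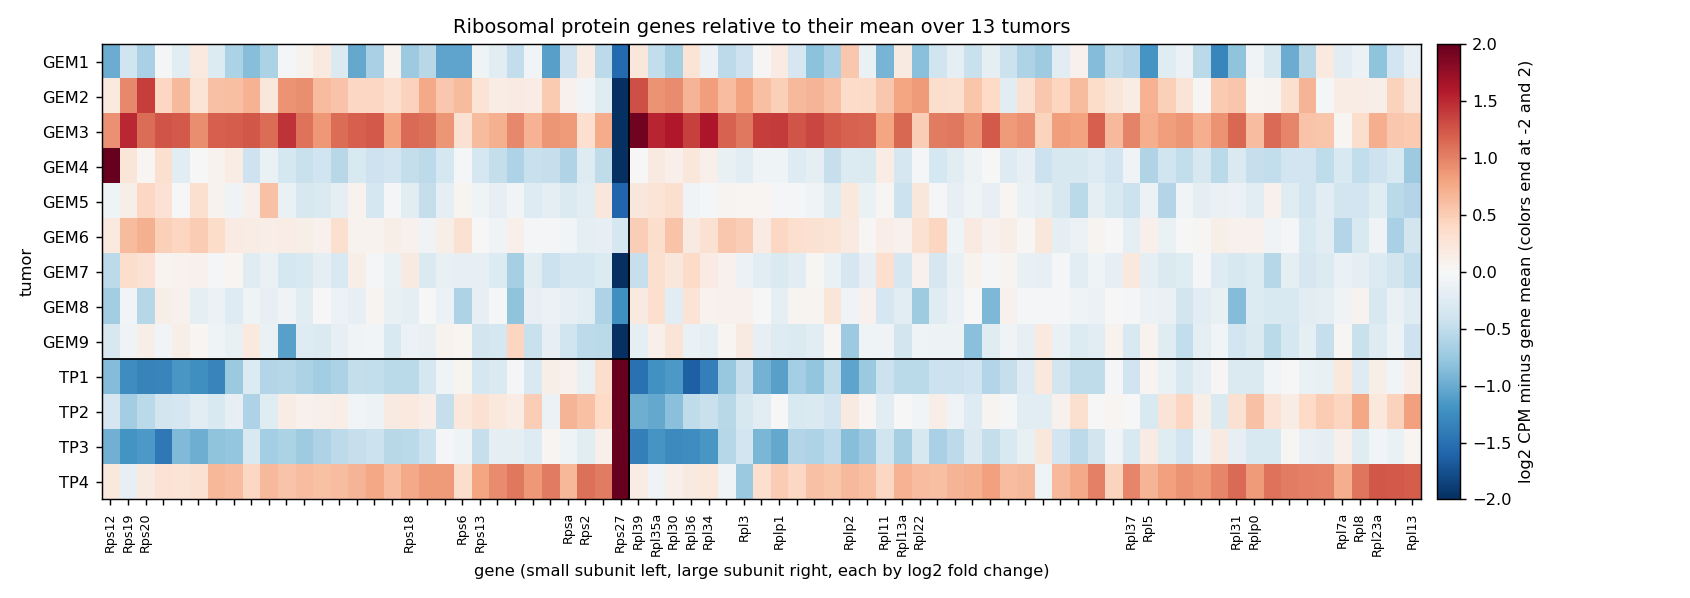
Each row is 1 of 13 tumors and each column 1 of 75 ribosomal protein genes of both subunits, of which the genes named in the text are labeled, and color gives log2 CPM minus the mean of that gene over the tumors, with colors ending at 2 in both directions. The tumors GEM2, GEM3 and TP4 are high for most genes (medians over the 77 genes 0.47, 0.96 and 0.66), while Rps27 departs from the rest with low values in all 9 GEM-BCC tumors.

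Per length, the transcripts differed widely in level. Mean CPM per kilobase, over the median annotated transcript length of each gene, was high for Rpl13a (5640.2, the highest of the genes of both subunits), Rpl13 (2751), Rpl23a (2668) and Rps18 (2480.2). The lowest among the genes of both subunits were Rpl22 (179.6), Rps20 (193) and Rps27 (354). The proteins themselves are needed in near equal numbers, but these levels depended on how reads were divided among copies and on the annotated lengths.

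In the comparison of Tp-BCC with GEM-BCC, 87 of the 90 genes had enough counts to be tested, among 14390 genes in all. Rpl3l, Rpl32l and Rpl31-ps12 were not tested, with at most 8, 9 and 1.32 counts in a tumor. Called genes were those with an adjusted p under 0.05 and a log2 difference beyond 2 in either direction. Of the 87 genes, 2 were called, Rps27 and Rps27rt, against a background of 5.57% of all genes tested. With an adjusted p under 0.05 alone, 3 of the 87 were higher in Tp-BCC (background 11.1%) and 6 were lower (background 8.35%). A further 78 did not pass, and 22 of the 87 had an unadjusted p under 0.05. The groups did not overlap for 2 genes, again Rps27 and Rps27rt (background 9.95%). With all tumors and TMM scaling each of these shares was below its background. That background took in many less abundant genes, with a median level of 4.63 log2 CPM against 9.56 for the 87. Of the 10151 genes at or above the lowest mean level of both subunits, 654 were lower, 60 called higher and 98 called lower. Against these genes, the called and lower shares of the 87 were above background, and the higher and non-overlapping shares below. The lower genes were above the background of all genes tested in other analyses. They were 14.9% of the 87 genes without TP4, against 6.02% of all genes tested, and 16.1% with libraries scaled to the ribosomal protein genes, against 3.75%. With library-size scaling they were 16.1% against 8.21%, and with a length correction 16.1% against 9.51%. The counts depended on single tumors. Leaving out TP4 gave 1 higher and 13 lower genes, leaving out GEM3 gave 6 higher genes, and the lower genes numbered 1 without TP1 or TP2, 2 without TP3 and 3 without GEM2 or GEM6. The split of 3 higher to 6 lower genes was 3 to 14 with library-size scaling, 2 to 8 with scaling factors computed without the ribosomal protein genes, and 4 to 14 with libraries scaled to their summed counts. The median difference was -0.06 over the 87 genes and -0.03 over all genes tested, and without TP4 it was -0.43 against -0.07, with 18 of the 87 differences positive and 69 negative. The spread between tumors was of a similar size, with a median SD of 0.50 in GEM-BCC and 0.58 in Tp-BCC for the 87 genes and 0.44 and 0.58 for all genes.

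**Figure D3:**
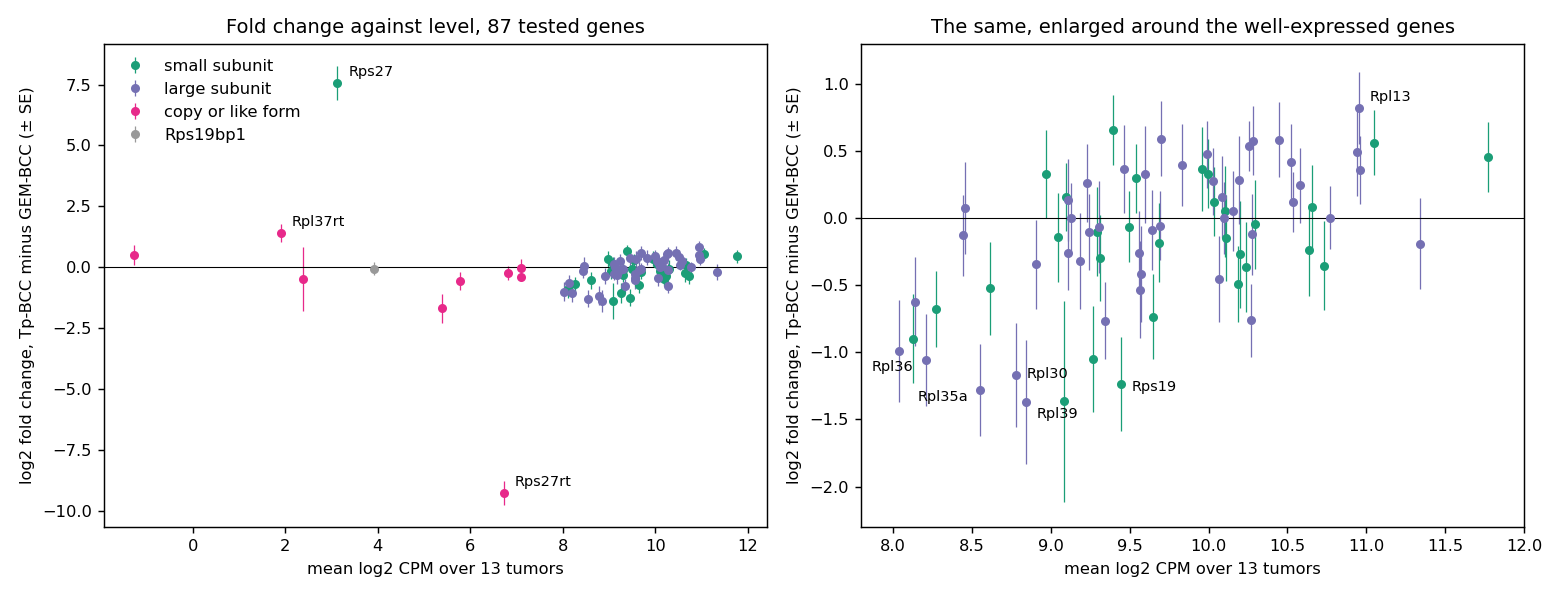
The log2 difference of Tp-BCC over GEM-BCC with its SE (vertical axis) is plotted against mean log2 CPM (horizontal axis) for the 87 genes tested, and the right panel enlarges the range around 0. Rps27 at 7.56 and Rps27rt at -9.23 stand alone, and the other genes of both subunits lie between -1.37 and 0.82.

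In the small subunit, 1 of 31 genes rose (Rps27, described above) and 1 fell, with a median difference of -0.14. Rps19, which is needed to mature the small subunit and is mutated in Diamond-Blackfan anemia, was at 9.05 (lowest), 9.69 (median) and 10.95 (highest) log2 CPM in GEM-BCC and at 8.20, 8.75, 8.25 and 9.28 in TP1 to TP4. The ranges overlapped through TP4, and Rps19 fell with a difference of -1.24 ± 0.35 (adjusted p = 0.0228). It missed the threshold without TP1, TP2 or TP3, with adjusted p of 0.0659, 0.0569 and 0.0560. Rpsa, the laminin receptor precursor that also belongs to the small subunit, was at 11.17, 11.48 and 12.63 in GEM-BCC and at 11.86, 12.45, 11.69 and 12.43 in Tp-BCC, a difference of 0.46 ± 0.26 (adjusted p = 0.230). Rps2 differed by 0.56 ± 0.24 (adjusted p = 0.115). Rps6, the substrate of the S6 kinases, was at 8.97, 10.08 and 10.67 in GEM-BCC and at 10.08, 10.24, 9.94 and 10.39 in Tp-BCC, a difference of 0.13 ± 0.26 (adjusted p = 0.762). All 4 Tp-BCC values of Rps6 lay within the GEM-BCC range.

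In the large subunit, 1 of 46 genes rose and 4 fell, which is near the background of 8.35% for lower genes. The median difference was 0.00, and 24 differences were positive and 22 negative. The gene that rose was Rpl13, at 10.23 (lowest), 10.58 (median) and 11.48 (highest) log2 CPM in GEM-BCC and at 11.09, 11.77, 10.98 and 12.16 in TP1 to TP4 (difference 0.82 ± 0.27, adjusted p = 0.0419). TP1 and TP3 lay within the GEM-BCC range, and without TP4 the difference was 0.51 (adjusted p = 0.220). Those that fell were Rpl30 (described above), Rpl35a, Rpl36 and Rpl39. Rpl35a, another gene mutated in Diamond-Blackfan anemia, was at 8.05, 8.86 and 10.07 in GEM-BCC and at 7.34, 7.52, 7.37 and 8.48 in Tp-BCC (difference -1.28 ± 0.34, adjusted p = 0.0180). Rpl36 was at 8.08, 8.48 and 9.58 in GEM-BCC and at 6.57, 7.70, 6.97 and 8.39 in Tp-BCC (difference -1.06 ± 0.34, adjusted p = 0.0429). Rpl39, which lines the exit tunnel of the nascent chain, was at 8.39, 9.06 and 10.78 in GEM-BCC and at 7.34, 7.87, 7.48 and 8.99 in Tp-BCC (difference -1.37 ± 0.46, adjusted p = 0.0484). In each of these 3 genes TP1, TP2 and TP3 lay below every GEM-BCC tumor and TP4 did not. These results were near the threshold. Without TP1 the adjusted p was 0.0537 for Rpl35a, 0.109 for Rpl36 and 0.117 for Rpl39. With the counts of tumors from the same mouse summed, Rpl30, Rpl36 and Rpl39 missed it (adjusted p = 0.0616, 0.0699 and 0.0594), and of the lower genes Rpl35a, Rps19 and Rps27rt passed.

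The most abundant large subunit gene, Rpl13a, and the least variable ones did not pass the test. Rpl13a, which also has a role in silencing inflammatory transcripts, differed by -0.19 ± 0.34 (adjusted p = 0.726). Rpl7a, with the lowest spread over GEM-BCC of the large subunit genes described here (SD 0.23), was at 9.67, 10.12 and 10.41 in GEM-BCC and at 10.47, 10.70, 10.37 and 10.98 in Tp-BCC. Of these values 3 of 4 lay above every GEM-BCC tumor, and the difference was 0.54 ± 0.19 (adjusted p = 0.0556). Rpl8 (SD 0.29) differed by 0.58 ± 0.26 (adjusted p = 0.124). Rpl3, which sits at the peptidyl transferase center, differed by -0.76 ± 0.27 (adjusted p = 0.0602), and unlike most genes it was lowest in TP4, at 9.53 against 9.80, 9.94 and 9.88 in TP1 to TP3.

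The stalk of the large subunit, which recruits translation factors, is formed by Rplp0, Rplp1 and Rplp2. Rplp0 was at 10.49 (lowest), 10.74 (median) and 11.58 (highest) log2 CPM in GEM-BCC and at 10.67, 11.55, 10.66 and 11.80 in Tp-BCC (difference 0.36 ± 0.25, adjusted p = 0.327). Rplp1 differed by -0.53 ± 0.36 (adjusted p = 0.313) and Rplp2 by -0.32 ± 0.36 (adjusted p = 0.556). All 3 were highest in TP4 among the Tp-BCC tumors. Rpl5 and Rpl11, which bind Mdm2 when ribosome assembly is disturbed and so link ribosomes to p53, differed by 0.16 ± 0.30 (adjusted p = 0.740) and -0.26 ± 0.28 (adjusted p = 0.538). For Rpl5 the GEM-BCC tumors were at 8.90, 9.96 and 10.80 and the Tp-BCC tumors at 10.14, 9.78, 10.25 and 10.76, within that range.

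Some copies and like forms encode proteins that can take the place of their relative in the ribosome. Of the 9 copies and like forms tested, 1 rose (Rpl37rt) and 1 fell (Rps27rt), with a median difference of -0.39. Rpl39l, a form of Rpl39 known from male germ cells, had expected counts of 627, 1063, 2332, 3, 19, 1095, 4, 0 and 561 in GEM1 to GEM9 and of 184, 199, 181 and 353 in TP1 to TP4. The GEM-BCC tumors thus ranged from 0 to 2332 counts, and the Tp-BCC tumors lay within that range. The difference was -0.46 ± 1.31 (adjusted p = 0.831). Rpl22l1, a form of Rpl22, was at 4.55 (lowest), 5.84 (median) and 7.95 (highest, GEM3) log2 CPM in GEM-BCC. In Tp-BCC it was at 3.48, 4.35, 3.67 and 5.63, a difference of -1.68 ± 0.61 (adjusted p = 0.0633). It was called without TP4, at a difference of -2.41 (adjusted p = 0.0301). Rpl22 itself differed by -0.13 (adjusted p = 0.794). Rpl7l1, which acts in subunit assembly, had a low spread over GEM-BCC (SD 0.23) and differed by -0.39 ± 0.18 (adjusted p = 0.145). Rpl36al and Rpl36a differed by -0.24 (adjusted p = 0.594) and 0.08 (adjusted p = 0.898), and Rps23rg1 by 0.52 (adjusted p = 0.396). Rps19bp1, the Rps19 binding protein, differed by -0.05 (adjusted p = 0.919).

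**Figure D4:**
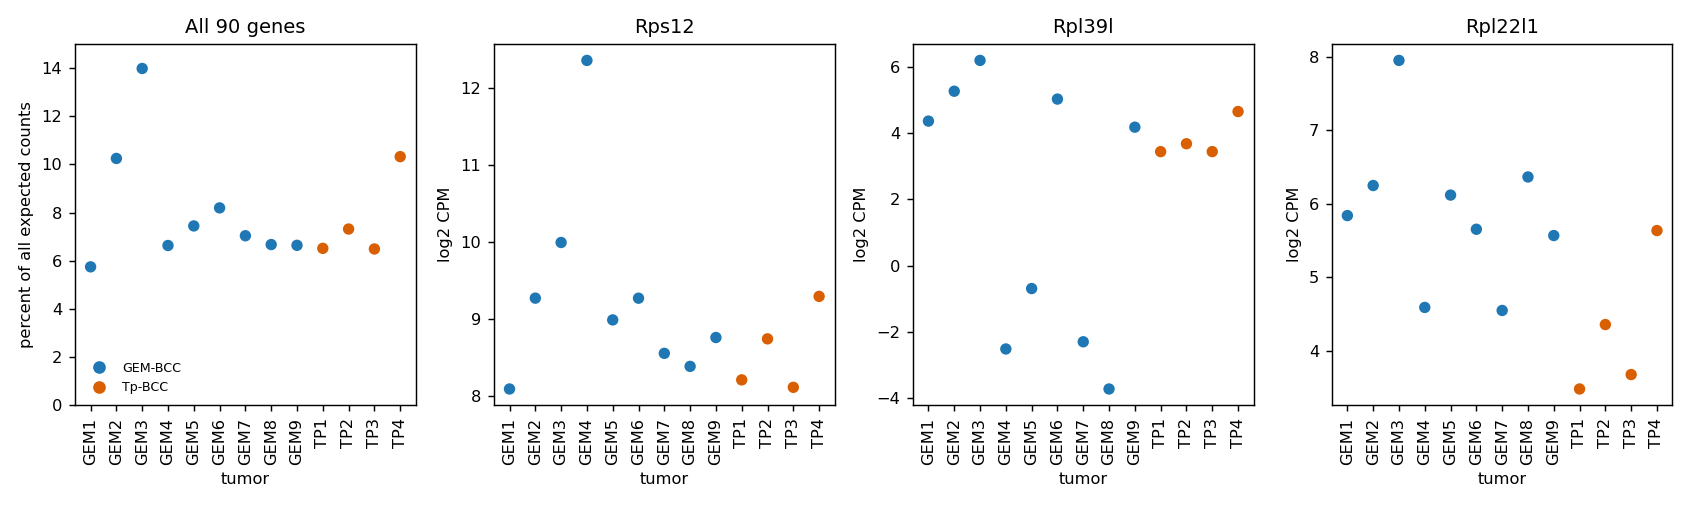
Points give, for each of the 13 tumors, the share of all counts taken by the 90 genes in percent and the log2 CPM of Rps12, Rpl39l and Rpl22l1. The share is highest in GEM3 (14.0%), Rps12 is highest in GEM4 (12.36), and Rpl39l falls to 0 to 19 counts in 4 GEM-BCC tumors while Rpl22l1 is highest in GEM3 (7.95).

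Rps12, a small subunit protein, stood out in a single tumor. It was at 8.09 (lowest), 8.99 (median) and 12.36 (GEM4) log2 CPM in GEM-BCC and at 8.21, 8.74, 8.11 and 9.30 in Tp-BCC, a difference of -1.37 ± 0.75 (adjusted p = 0.209). Its expected count was 159842 in GEM4 and 4628 to 32301 in the other tumors, which put GEM4 at 3.61 log2 units above the median of the others. Without GEM4 the difference between the models was -0.36 (adjusted p = 0.493).

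The neighbors of Rps12 on chromosome 10 were examined after this value was seen, in the gene order of RefSeq. All 10 nearest genes that were tested, from Myb to Ccn2, were more than 1 log2 unit higher in GEM4 than the median of the other tumors, by 1.51 to 4.97 with a median of 3.14. In every other tumor 0 to 2 of these 10 genes were. The run of genes above 1 log2 unit that holds Rps12 had 17 members, from Ahi1 to Akap7, with values of 1.12 to 6.51 and a median of 3.30. The genes just outside the run, Pde7b and Epb41l2, were at -0.30 and 0.12. Among all genes tested, 6.96% were more than 1 unit higher in GEM4, and on this chromosome 95 of 683 (13.9%). The region includes Myb, a transcription factor of progenitor cells, Sgk1, a kinase, and Ccn2, a matrix protein of fibrosis. The cause was not tested, and DNA copy number was not measured.

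Differences varied with transcript length among the 77 genes of both subunits. Spearman's rho between the log2 difference and length was 0.353 over these genes, which share tumors and libraries, and -0.0715 over 14335 genes with a length. The 25 shortest genes (367.5 to 599.5 bases) had a median difference of -0.27, with 18 negative, and 3 of them fell and 1 rose. The 27 in the middle had a median of -0.12, with 16 negative. The 25 longest (860 to 3706 bases) had a median of 0.16, with 7 negative, and 0 of them passed the test in edgeR. With GC content, rho was -0.00273 over the 77 genes and 0.261 over all genes. When the trends of each tumor with GC content and length over all genes were removed, rho among the 77 genes was 0.475 with length and -0.579 with GC content. The part of RNA fragment length or library preparation was not tested.

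**Figure D5:**
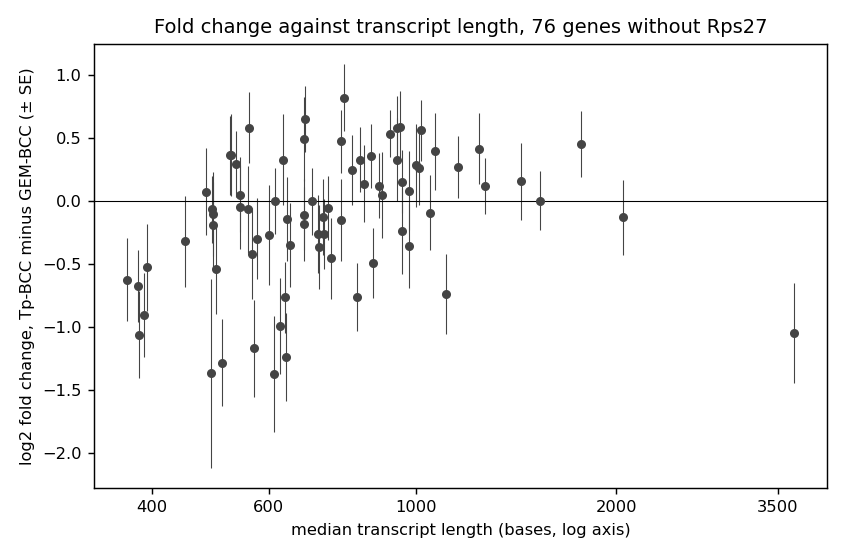
The log2 difference of Tp-BCC over GEM-BCC with its SE (vertical axis) is plotted against median annotated transcript length in bases (horizontal axis, log scale) for 76 genes of both subunits, without Rps27. Of the 25 shortest genes 18 have negative differences, and of the 25 longest 7.

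Ribosomal protein genes are known for promoters that start transcription at a cytosine within a run of pyrimidines, which places a terminal oligopyrimidine tract at the head of the messenger RNA and lets mTOR control its translation. RefSeq promoters (GRCm38.p6) were matched for 69 of the 90 genes, of which 57 belonged to the subunits. Windows from 15 bases before to 15 after the annotated start are shown for genes named above, with the run in capitals, and Rpsa is shown as a gene without it.
Rps6, chr4:86857353-86857382, minus strand: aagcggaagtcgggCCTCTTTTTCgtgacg
Rpl13a, chr7:45128731-45128760, minus strand: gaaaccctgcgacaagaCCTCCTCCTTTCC
Rps2, chr17:24720048-24720077, plus strand: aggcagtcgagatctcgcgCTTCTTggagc
Rpsa, chr9:120127751-120127780, plus strand: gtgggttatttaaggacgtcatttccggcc

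The run was a C followed by at least 5 pyrimidines, starting on the sense strand within 10 bases of the annotated start. It was found in 31 of the 57 genes (54.4%) and in 21.1% of all 27025 genes with a promoter. A gene counted if any of its promoters matched. The letters CCGGAAG, on either strand between 100 bases before and 50 after the start, were found in 18 (31.6%, against 7.52%). The letters AAGATGGC in the same window were found in 4 (7.02%, against 2.02%), and TATAAA on the sense strand in the 50 bases before the start in 0 of 57 (against 3.15%). The letters AAG end the first of these motifs and begin the next, so that their matches can overlap, and a match is a description of the window only. The 31 genes with the run had a median difference of 0.12 between the models and the 26 without it of 0.00. Their median correlations with the other ribosomal protein genes over the 13 tumors were 0.820 and 0.861.

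Other genes of ribosome assembly and translation were read from lists. In all, 311 of these genes were tested, of which edgeR called 0, with 41 at an adjusted p under 0.05 and 96 at an unadjusted p under 0.05. DESeq2 called 0, with 58 at an adjusted p under 0.05. Of all 14390 genes tested, edgeR called 5.57%. An adjusted p under 0.05 was reached by 19.4% of all genes in edgeR and by 26.0% in DESeq2. The ribosomal proteins Rack1 and Fau, which carry other names, differed by -0.09 (adjusted p = 0.839) and -0.82 (adjusted p = 0.0912). Ribosome biogenesis factors, which process ribosomal RNA and build the subunits, rose for 19 of 101 genes and fell for 0 (background 11.1% higher and 8.35% lower), with a median difference of 0.27. The most abundant of them, the nucleolar proteins Npm1 and Ncl, differed by 0.82 (adjusted p = 0.0980) and 0.27 (adjusted p = 0.671). The count of 19 depended on the tumors and the scaling, as did the share of all genes tested that were higher (11.1% as reported). It was 12 without TP4 (all genes 6.78%) and 6 with libraries scaled to the ribosomal protein genes (all genes 5.22%). After correction for GC content it was 33 (all genes 15.2%).

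The biogenesis factors that follow were chosen after their values were seen. Fbl, the methyltransferase of the box C/D particles, was at 6.46 (lowest), 6.75 (median) and 7.12 (highest) log2 CPM in GEM-BCC and at 7.66, 8.23, 7.49 and 8.46 in TP1 to TP4 (difference 1.27 ± 0.20, adjusted p = 0.000494). Tcof1, the treacle protein that aids transcription of ribosomal DNA, was at 6.004, 6.93 and 7.60 in GEM-BCC and at 7.77, 8.67, 7.82 and 9.11 in Tp-BCC (difference 1.501 ± 0.28, adjusted p = 0.00189). The groups did not overlap for either gene. Gar1 and Nop10, both of the box H/ACA particles, rose with differences of 1.12 ± 0.23 (adjusted p = 0.00349) and 0.86 ± 0.19 (adjusted p = 0.00602). Fbl and Gar1 were highest in TP4, as were most ribosomal protein genes.

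RNA polymerase I and its factors rose for 3 of 15 genes and fell for 0 (median 0.34, background 11.1% higher). The count was 0 without GEM4, GEM6, GEM7 or TP4 and with libraries scaled to the ribosomal protein genes, and 1 without GEM5, GEM8, GEM9, TP1 or TP2. The median was 0.06 without TP4. Polr1a, the largest subunit of the polymerase, rose narrowly with a difference of 0.72 ± 0.24 (adjusted p = 0.0495), and Ubtf, which binds ribosomal DNA, differed by 0.04 (adjusted p = 0.922). Chaperones and importers of ribosomal proteins rose for 4 of 14 and fell for 0 (median 0.03, background 11.1% higher and 8.35% lower). Those that rose were Tsr2, which escorts Rps26 (difference 1.01), Ipo9, an importin (1.27), Grwd1 (1.08) and Aamp (0.93). The count was 2 without TP2 or TP4 and with scaling to the ribosomal protein genes, and the median was -0.23 without TP3 and 0.27 without TP4. The importin Kpnb1 and the histone chaperone Nap1l1, the most abundant of the list, differed by -0.20 (adjusted p = 0.631) and -0.04 (adjusted p = 0.949).

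For the lists of this paragraph the background was again 11.1% of all genes tested higher and 8.35% lower. Of 40 initiation factors 1 rose and 2 fell (median 0.16). Eif3b, a scaffold subunit of eIF3, differed by 0.81, Eif1, which guards start codon choice, by -1.11 (adjusted p = 0.0240), and the helicase Eif4a2 by -1.60 (adjusted p = 0.0282). The initiation factors that rose numbered 4 without TP3, 3 without GEM3 and 2 without GEM1 or TP1, and 1 fell without TP1 or TP2. Eif4a2 separated the Tp-BCC tumors, with log2 CPM values of 7.24, 5.02, 7.57 and 4.70 in TP1 to TP4 and of 7.15 to 8.83 in GEM-BCC. It was not alone in this, as Eif5a2, Sec62 and Azi2 were also higher in TP1 and TP3 than in TP2 and TP4. Pabpc1 and Eif4a1 differed by 0.49 (adjusted p = 0.111) and 0.07 (adjusted p = 0.805). Of 17 elongation and termination factors 2 rose and 0 fell (median 0.18), Eef1e1 by 0.94 and Eef1d by 0.81, while Eef1a1 and Eef2, the most abundant, differed by -0.05 (adjusted p = 0.899) and 0.34 (adjusted p = 0.401). Those that rose numbered 0 without TP4 and 4 without TP3. Proteins of the mitochondrial ribosome, which is assembled separately, rose for 3 of 78 (Mrpl18, Mrps2 and Mrpl37) and fell for 0, with a median of 0.21. This count moved from 13 without GEM3 and 5 without TP3 to 1 without TP4 and 0 without TP2, and the median was 0.02 without TP4. The most abundant, Mrps6 and Mrpl17, differed by 0.43 (adjusted p = 0.294) and 0.17 (adjusted p = 0.619).

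Regulators of ribosomal protein synthesis rose for 2 of 25 genes and fell for 1 (median 0.07). The background for this and the next lists was the same, at 11.1% higher and 8.35% lower. Regulators that rose numbered 4 without TP1 or TP3 and 1 without TP2, TP4 or any of GEM3 to GEM9. Myc, a transcription factor that drives ribosome production, was at 4.65 (lowest), 5.02 (median) and 5.81 (highest) log2 CPM in GEM-BCC and at 6.75, 7.37, 6.63 and 7.14 in TP1 to TP4, without overlap (difference 1.79 ± 0.24, adjusted p = 0.000148). Pdcd4, an inhibitor of eIF4A that S6 kinase marks for decay, fell with a difference of -1.15 (adjusted p = 0.00914). Larp1, which binds terminal oligopyrimidine tracts, differed by 0.60 (adjusted p = 0.0659) and Mycn by 0.67 (adjusted p = 0.120). Of the 9 ribosomal S6 kinase genes tested, Rps6ka4 (0.90 ± 0.26, adjusted p = 0.0267) and Rps6ka2 (0.90, adjusted p = 0.0256) rose and 0 fell, but both missed the threshold without TP2 or TP4, without mouse 2 and with scaling to the ribosomal protein genes. Rps6ka1 differed by -0.25 (adjusted p = 0.558). Of 14 genes of the p53 branch of the ribosome stress response 0 rose and 2 fell (median -0.41), namely Trp53 and its target Cdkn1a, an inhibitor of the cell cycle (difference -1.56 ± 0.37, adjusted p = 0.0101), and 1 fell without TP1. Nop53 and Mdm4 differed by 0.43 (adjusted p = 0.307) and -1.10 (adjusted p = 0.133).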

How the data were processed

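RNA was isolated from 13 bulk tumors, enriched for poly(A) RNA and sequenced on DNBSEQ. Per the study's methods the authors cleaned reads with SOAPnuke, aligned them with Bowtie2 2.3.4.3 to the NCBI mouse genome GRCm39 and quantified genes with RSEM 1.3.1. The deposited table by the authors holds expected counts per gene, which divide reads that match several transcripts by a likelihood model, so near-identical copies share reads and their split is uncertain.

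Expected counts were rounded. Genes with a value in all 13 tumors and at least 10 counts in at least 4 tumors entered edgeR 4.0.16 (R 4.3.3; limma 3.58.1): TMM scaling, robust quasi-likelihood fit, test of model without covariates, Benjamini-Hochberg adjustment over all 14390 genes. Called genes had an adjusted p under 0.05 and an absolute log2 difference above 2. Levels are log2 CPM with a prior count of 2, and the SE is the absolute log2 difference over the square root of F. Counts of copies were also summed (whole-number tolerance 0.005 for a gene and 0.015 for a sum), with no prior for the level of a sum. Model and batch coincide, so no batch term could be fitted. The scripts were tested on simulated data. Alternatives were DESeq2 1.42.0, other scalings and filters, GC and length offsets (lowess span 0.3), a replicate block, sums per mouse, and leaving out tumors.

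Named genes were the called members, the 6 of highest mean level, up to 8 of highest and 8 of lowest difference with adjusted p under 0.05, the 4 of lowest and 4 of highest GEM-BCC SD, every member of a duplicate family, Rpl5, Rpl11, Rps6, Rpsa and the stalk genes; of lists, every called gene of a list with at most 5 calls (otherwise the 5 most abundant) and the 2 most abundant genes. Genes of lists with an adjusted p under 0.05 that are described beyond this were chosen after their values were seen. The members and lists were chosen with earlier results of these data known. Promoters are from RefSeq (GRCm38.p6), coding sequences from GENCODE vM21 (GRCm38); no coordinates were converted. Of 18 snoRNA host genes listed, 0 were in the table. Some genes that the rules name are not reported here.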

Additional observations from a re-analysis of the deposited data

Results flagged for a closer look

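Among 88 groups of tumors examined (named genes and sums, each within 1 model), a single tumor lay far from the others in 11. Chance gives about 1 in 20 for independent groups. These groups are not independent, because the genes vary together over the same tumors, so the 11 cannot be read as an excess over chance. All values are log2 CPM, with the nearest tumor in parentheses. GEM3 was high for Rpl32 at 10.72 (9.94), Rpl36al at 7.99 (7.06), Rplp0 at 11.58 (11.04), Rplp1 at 10.97 (10.04), Rps27l at 7.33 (6.24), Rpsa at 12.63 (11.86) and the sum of Rpl41 and Herpud2 at 10.64 (9.64). TP4 was high for Rpl35a at 8.48 (7.52) and Rpl36al at 7.30 (6.56). These are the tumors of highest ribosomal protein share in their models. GEM4 was high for Rps12 at 12.36 (9.997). GEM2 was low for Rps27 at -3.73 (0.17), which is the value of a count of 0.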

How the results depend on the processing

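The ribosomal protein genes (members) called numbered 2 in the analysis as reported, 3 without TP4, and 8 with a log2 threshold of 1. Rps27 and Rps27rt were called in all 28 alternatives tried (7.17 to 8.88 and -9.42 to -8.72). All of these started from the same expected counts, so they could not alter the division of reads between Rps27 and Rps27rt. Members lower with an adjusted p under 0.05 (6 as reported) numbered 14 with library-size scaling, with a length correction and with libraries scaled to the members, 12 with DESeq2, 11 with a GC correction, 16 with GC and length corrections and 3 with counts summed per mouse. Leaving out 1 tumor gave 1 to 13 (1 without TP1 or TP2, 2 without TP3, 3 without GEM2 or GEM6, 13 without TP4). Members higher (3 as reported) numbered 7 with GC and length corrections and 8 without mouse 2, and leaving out 1 tumor gave 1 (without TP4) to 6 (without GEM3). The split of higher to lower members was 3 to 14 with library-size scaling, 2 to 8 with TMM without the members and 4 to 14 scaled to the members. Family sums with an adjusted p under 0.05 (0 as reported) numbered 2 with library-size scaling, TMM without the members, DESeq2, the GC, length, and GC and length corrections and scaling to the members, and 0 to 2 leaving out 1 tumor (2 without TP4, 1 without GEM1 or GEM7). List genes called (0 as reported) numbered 2 with GC and length corrections and 0 to 1 leaving out 1 tumor (1 without TP3). The median difference over both subunits ranged from -0.43 (without TP4) to 0.11 (without mouse 2).

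With the replicate number as a block (replicate block), 1 member was higher and 1 lower with an adjusted p under 0.05, 178 of 14390 genes passed against 2792 without the block, and 0 biogenesis factors passed. The tumors of the models share only a number: the correlations of same-numbered tumors were -0.381, -0.122, -0.101 and -0.179, and no Tp-BCC tumor correlated best with its own number.

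Over 1008 values of 36 named genes, 890 kept direction and side of the threshold, 58 lost and 32 gained an adjusted p under 0.05, and 28 changed sign, none of them with an adjusted p under 0.05. An adjusted p under 0.05 was lost in 14 of 28 alternatives for Rpl30, 12 for Rpl13 and for Rpl39, 10 for Rpl36, 4 for Rps19 and for Rpl35a and 2 for Rpl37rt. Rpl36a changed to -0.045 (library size), -0.00492 (TMM without the members) and -0.067 (replicate block), Rpl37 to -0.044 (replicate block), Rpl22, Rpl39l and Rps27l to 0.23, 0.45 and 0.47 (GC) and to 0.33, 0.42 and 0.34 (GC and length), Rpl34-ps1 to 0.16 (per mouse) and 0.30 (without mouse 2), and Rpl13a and Rpl39l to 0.085 and 0.46 (without mouse 2). Leaving out 1 tumor gave ranges of -0.47 to 0.018 for Rpl22, -0.11 to 0.51 for Rpl31, -0.41 to 0.20 for Rpl34-ps1, -0.42 to 0.26 for Rpl36a, -0.32 to 0.29 for Rpl37, -0.88 to 0.070 for Rpl39l, -0.073 to 0.41 for Rpl7, -0.083 to 0.27 for Rpl5, -0.014 to 0.22 for Rps6, and -0.17 to 0.44, -0.31 to 0.30 and -0.028 to 0.53 for the sums of Rpl30, Rpl37 and Rpl41 with their copies. The cause was not tested. Tp-BCC libraries held fewer counts than GEM-BCC, so low counts in Tp-BCC are less precise. Scaling to the members, leaving out mouse 2, the joint GC and length correction and the whole-number sums were chosen after seeing the data.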
